A study of Mus musculus with 27 samples.

Results

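The cortex of double mutant mice (Bcl11a/b-DCKO) was followed from embryonic day (E) 13.5 to E15.5 in 6 libraries, 3 at each age, taken by their labelled genotype and stage from the 27 libraries of the series. These C57BL/6 mice carried Emx1-Cre together with floxed alleles of both genes (Emx1-Cre; Bcl11aFlox/Flox; Bcl11bFlox/Flox). Emx1-Cre recombines in progenitors of the dorsal telencephalon, so that blood vessels, microglia, meninges and the interneurons that migrate in from the ventral telencephalon keep both genes. Cortex of the same ages from wildtype mice (Control) and from Emx1-Cre; Bcl11aFlox/Flox mice (Bcl11a-CKO), with 3 libraries per group, was used to ask whether a change with age differed between genotypes. The study asks what Bcl11a and Bcl11b do for the generation and maturation of projection neurons.

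Bcl11a and Bcl11b encode related zinc-finger transcription factors. Bcl11b is best known from the subcerebral projection neurons of layer 5, whose axons need it, and Bcl11a is made more widely in postmitotic projection neurons. Over the days studied here, radial glia of the ventricular zone, kept as progenitors by Notch signalling, give rise to neurons directly or through intermediate progenitors. The neurons born early settle in the subplate and the deep layers, those born later pass them to form the upper layers, and the young neurons extend axons and begin to express receptors, ion channels and synaptic proteins.

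Total RNA was sequenced, and counts per gene summed to 4841410 to 6955612 in the 6 libraries of the double mutant. Values are CPM, the counts scaled to a common library total, given per library in the order of replicates 1, 2 and 3. A fold change is the log2 of E15.5 over E13.5 with its standard error (SE). A gene is said to rise or fall where edgeR's quasi-likelihood test gave a Benjamini-Hochberg adjusted p under 0.05 over all 14947 genes tested. The 34 gene lists held 467 genes, of which 434 passed the filter on low counts and were tested. At E15.5, 2 libraries of the Control and 2 of the Bcl11a-CKO carry the same number with the side letters R and L and were summed, which left n = 2 in these groups and n = 3 in the others. Nothing in the labels ties the remaining libraries to separate embryos, so the p-values speak only of how far these samples spread, and that spread may be technical. In the double mutant, replicate 3 held Y-linked transcripts and almost no Xist at both ages and replicates 1 and 2 the reverse, so both ages held the same mix of sexes. The Control and the Bcl11a-CKO each held 1 library with Xist and 2 with Y-linked transcripts per age, a different mix from that of the double mutant. Every E15.5 title of the Control and the Bcl11a-CKO carries a side letter, and no E15.5 title of the double mutant does. So at E15.5 genotype cannot be told apart from any difference in sampling between the double mutant and the other genotypes. This limit applies to each difference from the Control or the Bcl11a-CKO. The E13.5 titles carry a suffix that the E15.5 titles lack, and age cannot be told apart from any difference in handling between the ages. Within each E13.5 group the suffix of replicate 1 differs from that of replicates 2 and 3, and its meaning is not given.

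Both deleted genes still gave counts, and both rose with age. Bcl11a (chromosome 11, 24078056 to 24174123, mm10) stood at 281, 306 and 312 CPM at E13.5 and 714, 655 and 694 CPM at E15.5 (log2 fold change of 1.20 ± 0.11, adjusted p = 7.32e-07). In the Control it went from 487 to 748 CPM (log2 fold change of 0.62 ± 0.12, adjusted p = 0.000655). Bcl11b (chromosome 12, 107910403 to 108003602) stood at 57.6, 45.0 and 49.4 CPM at E13.5 and 111, 117 and 99.96 CPM at E15.5 (log2 fold change of 1.11 ± 0.25, adjusted p = 0.00169), against a Control mean of 223 to 328 CPM (log2 fold change of 0.56 ± 0.26, adjusted p = 0.0873). For both genes the E13.5 and E15.5 libraries lay apart, and all 6 libraries of the double mutant stayed under the Control mean of the same age. For neither gene did the difference from the change in the Control pass the test (adjusted p = 0.0646 and 0.523), though that of Bcl11a passed in 4 of 19 alternative analyses. The labels do not say which exons are floxed, so counts summed over all exons cannot serve as a check of the recombination.

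With age, 4134 genes rose in the double mutant (27.7% of those tested) and 4062 fell (27.2%), so that most genes passed the test and a gene's call alone says little. The count of each gene list below is to be read against these shares. The median absolute log2 fold change was 0.452 over all genes tested, and the median log2 fold change was -0.004. Changes of at least 2-fold were found for 1804 of the genes that rose and 1498 of those that fell. The libraries of the ages did not overlap for 31.7% of genes in the higher and 31.8% in the lower direction. Changes in either direction were called for 54.8% of genes in the double mutant, 48.0% in the Control and 48.1% in the Bcl11a-CKO. In the Control 3625 genes rose (24.3%) and 3551 fell (23.8%), with fewer samples. Of the genes that rose in the double mutant, 2882 also rose in the Control, which is 69.7% of the double mutant list and 79.5% of the Control list, and 41 fell there. Of those that fell, 2874 also fell in the Control (70.8% and 80.9% of the lists), and 32 rose there.

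Cortical identity genes were present at both ages. Of 7 dorsal telencephalon genes, 1 rose and 4 fell, where 27.7% of all genes tested rose and 27.2% fell. The median log2 fold change of the 7 was -0.63. Pax6, a transcription factor of radial glia, fell from 208 ± 29.8 to 69.1 ± 3.04 CPM (n = 3 at each age, log2 fold change of -1.59 ± 0.12, adjusted p = 1.41e-07), Emx1 from 162 to 89.1 CPM and Lhx2 from 822 to 532 CPM, while Neurod6, made in postmitotic excitatory neurons, rose from 337 to 875 CPM (log2 fold change of 1.38 ± 0.17, adjusted p = 1.1e-05).

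**Figure D1:**
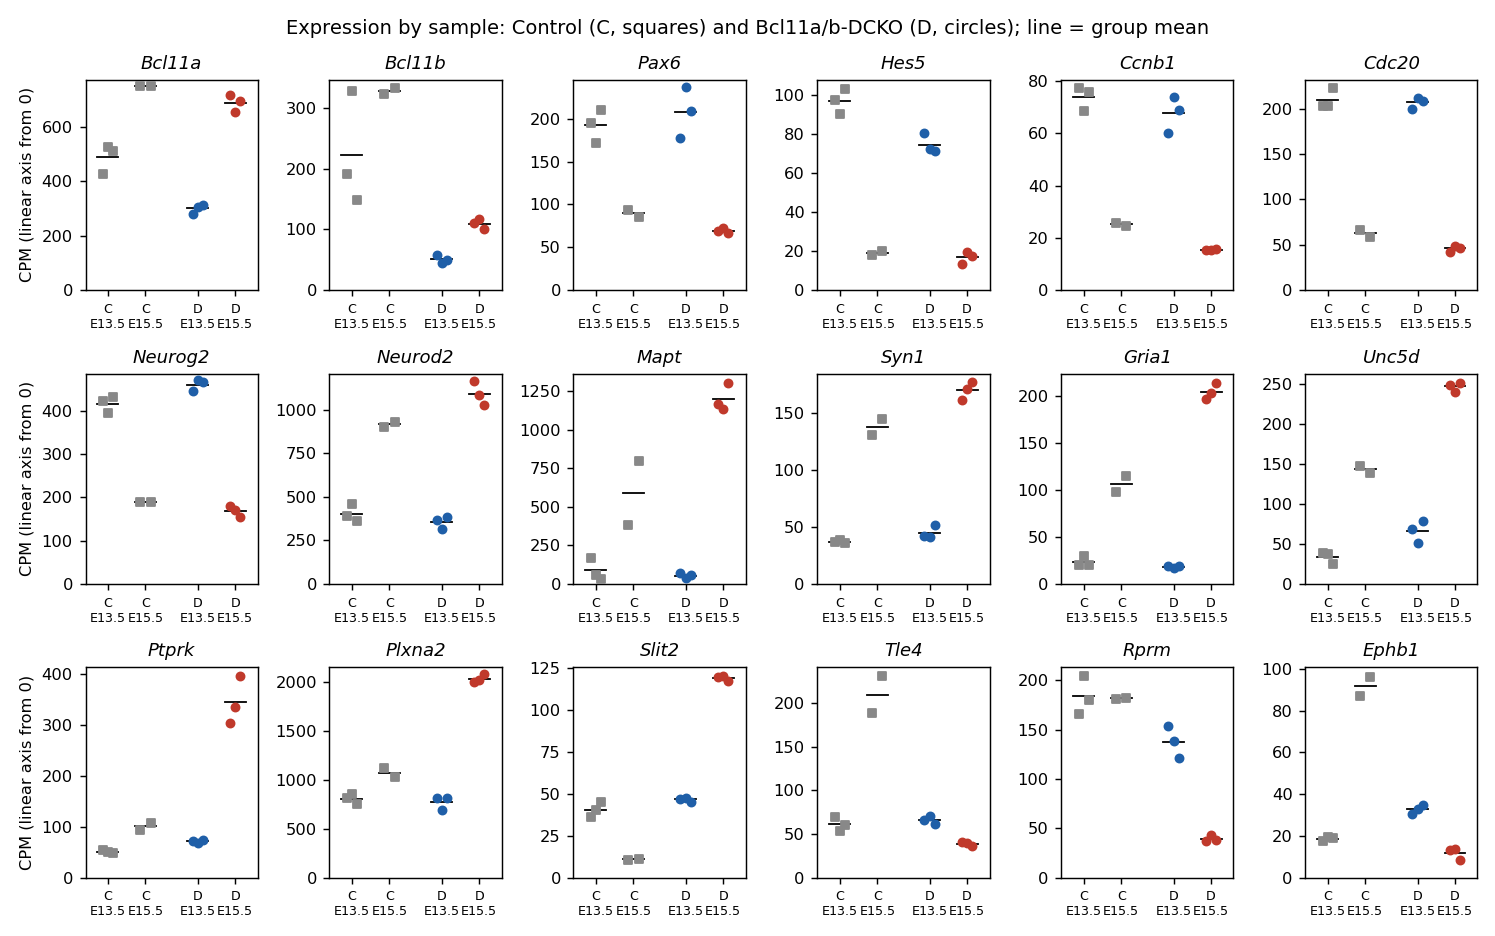
CPM (linear axis from 0) of 18 genes in each sample, Control as grey squares and Bcl11a/b-DCKO as circles (blue at E13.5, red at E15.5), with the group mean as a line. In the double mutant the progenitor and cell cycle genes lie lower at E15.5, the neuronal genes lie higher, and Tle4, Rprm and Ephb1 lie lower although the Control mean of Tle4 and Ephb1 is higher.

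**Figure D2:**
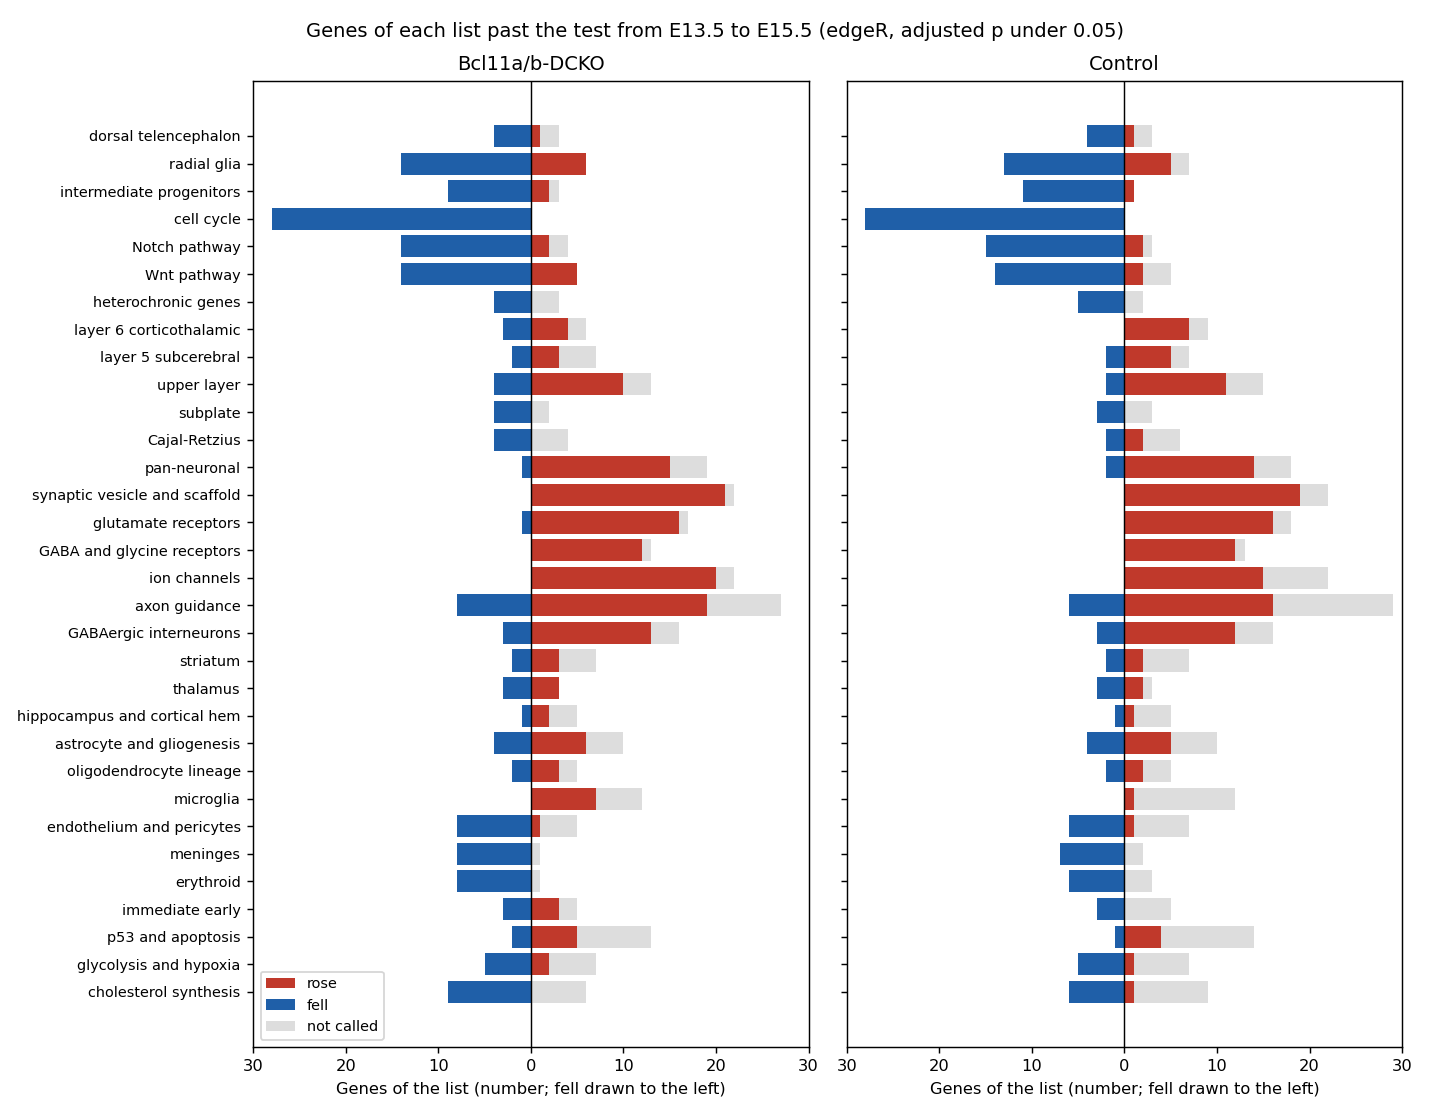
Number of genes in each list that rose (red), fell (blue, drawn to the left) or did not pass the test (grey, placed after those that rose) from E13.5 to E15.5, in Bcl11a/b-DCKO on the left and Control on the right. All 28 cell cycle genes fell in both genotypes. In the double mutant 7 of 12 microglia genes rose against 1 in the Control, and for none of the 12 did the difference pass the test.

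Progenitor genes were mostly lower at E15.5. Of 20 radial glia genes, 14 fell and 6 rose (Control 13 and 5), against 27.2% and 27.7% of all genes tested. The median log2 fold change of the list was -1.29. Hes5 and Hes1, the transcriptional repressors through which Notch keeps progenitors undifferentiated, fell together. Hes5 stood at 80.4, 72.3 and 71.1 CPM at E13.5 and 13.2, 19.7 and 17.5 CPM at E15.5 (log2 fold change of -2.14 ± 0.18, adjusted p = 3.51e-07). Hes1 fell from 48.5 to 11.4 CPM (-2.08 ± 0.18). Id4, an inhibitor of basic helix-loop-helix factors, fell from 463 to 74.4 CPM (-2.64 ± 0.17) and Gli3, a transcription factor of the Sonic hedgehog pathway, from 318 to 94.2 CPM (-1.75 ± 0.13). In a bulk sample, fewer cells of a type and less RNA per cell cannot be told apart. Against the direction of the list, Tnc, the extracellular matrix protein tenascin-C, stood at 4.71, 4.33 and 7.58 CPM at E13.5 and 209.7, 259.7 and 331 CPM at E15.5 (log2 fold change of 5.60 ± 0.34, adjusted p = 4.68e-08), with no overlap between the ages. In the Control the log2 fold change of Tnc was 5.51 ± 0.36, and the difference did not pass the test (0.09 ± 0.54, adjusted p = 0.97).

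Notch pathway genes followed: 14 of 18 fell and 2 rose, against 27.2% and 27.7% of all genes tested. The receptor gene Notch3 fell from 249 to 59.7 CPM (-2.06 ± 0.09) and the ligand gene Dll1 from 175 to 56.7 CPM (-1.63 ± 0.11). Dll3, a Notch ligand family member, and Hey1, a further target of the pathway, fell by 2.07 and 1.90 on the log2 scale. Notch1 stood at 656, 667 and 679 CPM at E13.5 and 249, 231 and 252 CPM at E15.5 (log2 fold change of -1.45 ± 0.08, adjusted p = 1.49e-08), and its fall was steeper than in the Control (518 to 303 CPM, difference of the log2 fold changes -0.68 ± 0.11, adjusted p = 0.00326).

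Of 12 genes of intermediate progenitors and neurogenesis, 9 fell and 2 rose, against 27.2% and 27.7% of all genes tested. Neurog2, a proneural factor, had values of 445, 470.4 and 466 CPM at E13.5 and 179.7, 171 and 155 CPM at E15.5 (log2 fold change of -1.45 ± 0.06, adjusted p = 1.01e-08). Neurog1, its relative, fell from 53.3 to 4.26 CPM (-3.66 ± 0.27), and Btg2 and Gadd45g, both linked to cell cycle exit, fell by 1.57 and 1.61 on the log2 scale. Neurod1, a neurogenic factor of newborn neurons, differed from the Control. It stood at 111, 118 and 123 CPM at E13.5 and 147, 165 and 129.95 CPM at E15.5 in the double mutant (log2 fold change of 0.33 ± 0.12, adjusted p = 0.0324), a rise that 4 of 14 alternatives ended (adjusted p = 0.147 without replicate 2 of E15.5). Over the same days Neurod1 was lower in the Control, going from 85.8 to 46.4 CPM (log2 fold change of -0.89 ± 0.15, adjusted p = 0.000182; difference of the log2 fold changes 1.22 ± 0.19, adjusted p = 0.00194).

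Wnt pathway genes were lower in 14 and higher in 5 of 19 cases, against 27.2% and 27.7% of all genes tested. Tcf7l1, a repressor among the TCF factors, fell from 143 ± 14.9 to 16.7 ± 0.971 CPM (log2 fold change of -3.10 ± 0.17, adjusted p = 2.19e-08), and the receptor genes Fzd8 and Fzd9 fell by 1.71 and 1.73 on the log2 scale. Nkd1, which encodes a Wnt feedback inhibitor, behaved otherwise: its libraries held 136, 114 and 125 CPM at E13.5 and 189.7, 191 and 169 CPM at E15.5 (log2 fold change of 0.56 ± 0.13, adjusted p = 0.00258), while the Control mean fell from 51.0 to 21.3 CPM (log2 fold change of -1.26 ± 0.17, adjusted p = 3.95e-05). The difference between the genotypes passed the test (1.82 ± 0.22, adjusted p = 0.000249). Genes of the heterochronic pathway, which mark early developmental time, fell in 4 of 7 cases and rose in none, against the same shares. Hmga2, a chromatin protein of young progenitors, stood at 59.8, 100.5 and 78.8 CPM at E13.5 and 9.78, 6.22 and 4.64 CPM at E15.5 (log2 fold change of -3.56 ± 0.45, adjusted p = 1.36e-05). The RNA-binding protein genes Igf2bp1, Igf2bp2 and Igf2bp3 fell by 1.40, 1.25 and 1.03.

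All 28 cell cycle genes fell, with no overlap between the ages for any of them, where 27.2% of all genes tested fell and 31.8% lay lower without overlap. Their median log2 fold change was -1.87, and it was -1.52 in the Control, where all 28 fell too. Ccnb1, the mitotic cyclin B1, stood at 60.0, 73.9 and 68.7 CPM at E13.5 and 15.5, 15.3 and 15.7 CPM at E15.5 (log2 fold change of -2.12 ± 0.13, adjusted p = 5.55e-08). Cdc20, an activator of the anaphase-promoting complex, fell from 207 ± 6.35 to 46.0 ± 3.27 CPM (log2 fold change of -2.17 ± 0.12, adjusted p = 2.19e-08), and Bub1, a spindle checkpoint kinase, from 113 ± 7.16 to 27.2 ± 3.91 CPM (-2.06 ± 0.15). Rrm2, the small subunit of ribonucleotide reductase, had 283, 339 and 335 CPM at E13.5 and 68.7, 83.7 and 60.3 CPM at E15.5 (-2.17 ± 0.20). Birc5 (survivin) fell from 103 to 22.9 CPM (-2.16 ± 0.17). Ccnd2, the cyclin D2 of cortical progenitors, was the most abundant of those named and fell from 1748 ± 101 to 349.8 ± 20.3 CPM (log2 fold change of -2.32 ± 0.11, adjusted p = 1.01e-08). For Ccnb1, Cdc20, Bub1, Rrm2 and Birc5 the difference from the Control did not pass the test (adjusted p = 0.141, 0.25, 0.203, 0.362 and 0.469). For Ccnd2 it did (difference of the log2 fold changes -0.65 ± 0.16, adjusted p = 0.0337), a call that 9 of 19 alternatives ended, with an adjusted p of up to 0.106.

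The promoters of these genes are shown because they fell together. RefSeq promoter windows (GRCm38.p6) were found for 22 of the 28 genes, in 23 windows. Within the 250 bases before the start, the letters CCAAT, on either strand, were present in 91.3% of these windows (20 genes), against 34.8% of 13505 windows of tested genes and 33.8% of all 32851 windows. They occurred in 38.3% of windows of genes that fell and in 31.4% of windows of genes that rose. The letters TTTGAA, on either strand, were present in 34.8% of the cell cycle windows (8 genes) and in 10.3% of windows of tested genes. Such matches are a description of the letters and not of binding. The 120 bases directly before the start are given below, 5′ to 3′ along the gene's strand, in lower case with CCAAT or ATTGG and TTTGAA or TTCAAA in capitals; the motifs share no bases.
Cdc20, chr4:118437344-118437463, minus strand: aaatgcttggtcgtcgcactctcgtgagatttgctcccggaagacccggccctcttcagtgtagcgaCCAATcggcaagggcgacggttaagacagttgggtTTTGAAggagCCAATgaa
Ccnb1, chr13:100786487-100786606, minus strand: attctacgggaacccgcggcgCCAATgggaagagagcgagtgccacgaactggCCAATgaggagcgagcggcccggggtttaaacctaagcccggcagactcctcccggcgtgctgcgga
Bub1, chr2:127831860-127831979, minus strand: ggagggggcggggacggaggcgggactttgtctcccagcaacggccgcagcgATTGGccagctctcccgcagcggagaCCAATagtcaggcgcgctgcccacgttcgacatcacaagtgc
Rrm2, chr12:24708134-24708253, plus strand: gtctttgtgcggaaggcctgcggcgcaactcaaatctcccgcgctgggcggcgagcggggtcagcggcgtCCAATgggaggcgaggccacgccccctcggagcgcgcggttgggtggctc
Kif11, chr19:37376262-37376381, plus strand: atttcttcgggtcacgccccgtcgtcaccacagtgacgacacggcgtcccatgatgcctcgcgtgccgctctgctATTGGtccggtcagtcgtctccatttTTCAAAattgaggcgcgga
Each of these windows holds at least 1 CCAAT on either strand, and those of Cdc20 and Kif11, a mitotic kinesin, also hold TTTGAA on either strand. Kif11 fell from 207 ± 30.3 to 54.9 ± 5.08 CPM (log2 fold change of -1.92 ± 0.17, adjusted p = 5.7e-07). The windows of Birc5 and Tyms held neither.

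Neuronal genes moved the other way. Of 20 pan-neuronal genes, 15 rose and 1 fell (27.7% of all genes tested rose), with a median log2 fold change of 1.21. Mapt, the microtubule protein tau, stood at 69.0, 36.5 and 56.5 CPM at E13.5 and 1170.4, 1133 and 1302 CPM at E15.5 (log2 fold change of 4.48 ± 0.75, adjusted p = 0.000152), the E15.5 libraries far above those of E13.5. Neurod2, a transcription factor of excitatory neurons, went from 356 ± 37.1 to 1092 ± 69.7 CPM (log2 fold change of 1.62 ± 0.19, adjusted p = 6.26e-06). Rbfox1, a neuronal splicing factor, rose from 16.8 to 198 CPM (3.57 ± 0.38). Camk2b, a calmodulin-dependent kinase subunit, rose from 6.70 to 81.6 CPM (3.61 ± 0.27). In the Control Camk2b rose from 28.6 to 239.8 CPM (3.07 ± 0.25).

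Of 22 genes for synaptic vesicles and scaffolds, 21 rose and none fell, with a median log2 fold change of 1.45, and 1.37 in the Control, where 19 of 22 rose. Syn1, the vesicle protein synapsin I, stood at 42.2, 41.1 and 52.0 CPM at E13.5 and 161, 171 and 177 CPM at E15.5 (log2 fold change of 1.92 ± 0.18, adjusted p = 8.2e-07). The scaffold genes Shank1 and Dlg2 rose from 29.0 to 223 CPM and from 5.64 to 56.8 CPM (2.94 ± 0.29 and 3.35 ± 0.26). Cplx1, a regulator of vesicle fusion, rose from 9.76 to 70.8 CPM (2.86 ± 0.23). Homer1, a postsynaptic scaffold gene, did not share this rise: it stood at 44.6, 34.4 and 37.3 CPM at E13.5 and 39.1, 35.8 and 35.2 CPM at E15.5 (log2 fold change of -0.08 ± 0.13, adjusted p = 0.629), with overlapping libraries, while the Control went from 46.1 to 92.1 CPM (log2 fold change of 1.00 ± 0.13, adjusted p = 3.72e-05). This difference passed the test (-1.07 ± 0.18, adjusted p = 0.00429).

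Glutamate receptor genes rose in 16 of 18 cases and fell in 1 (median 2.01, Control 2.19), and GABA and glycine receptor genes in 12 of 13 (median 2.13, Control 1.74). Gria1, an AMPA receptor subunit, stood at 19.6, 16.5 and 18.6 CPM at E13.5 and 197, 203 and 214 CPM at E15.5 (log2 fold change of 3.49 ± 0.27, adjusted p = 2.05e-07). Grin2b, an NMDA receptor subunit, rose from 10.9 to 108 CPM (3.32 ± 0.39). Grm5, a metabotropic receptor, had 2.54, 1.01 and 3.79 CPM at E13.5 and 66.6, 82.0 and 53.2 CPM at E15.5 (4.82 ± 0.44). Gabbr2, a GABA-B receptor subunit, and Glra2, a glycine receptor subunit, rose from 5.65 to 65.4 CPM and from 16.05 to 84.6 CPM (3.53 ± 0.29 and 2.41 ± 0.26). Ion channel genes rose in 20 of 22 cases with none falling (Control 15 of 22). Kcnq3, a potassium channel of the M-current, stood at 21.4, 11.4 and 18.8 CPM at E13.5 and 297, 268 and 254 CPM at E15.5 (log2 fold change of 4.00 ± 0.38, adjusted p = 9.67e-07). Scn1a, a sodium channel, stood at 12.3, 7.51 and 13.2 CPM at E13.5 and 124, 117 and 125 CPM at E15.5 (log2 fold change of 3.48 ± 0.27, adjusted p = 2.29e-07). The differences of Kcnq3 and Scn1a from the Control did not pass the test (adjusted p = 0.0729 and 0.0616), but passed in 4 and 5 of 19 alternatives.

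Layer 6 corticothalamic genes parted from the Control. Of 9 genes, 4 rose and 3 fell in the double mutant (median log2 fold change -0.06), whereas 7 rose and none fell in the Control (median 1.42). For 5 of 9 the change was more negative than in the Control, against 1.81% of all genes tested. The summed level of the list was 773, 745 and 762 CPM at E13.5 and 810.4, 728 and 683 CPM at E15.5, with overlap between the ages, and in the Control it was 774 to 1008 CPM at E13.5 and 1636 to 1649.7 CPM at E15.5.

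Tle4, a corepressor of corticothalamic neurons (chromosome 19, 14448072 to 14598051), stood at 65.6, 71.2 and 61.5 CPM at E13.5 and 40.4, 40.1 and 36.2 CPM at E15.5 (log2 fold change of -0.76 ± 0.13, adjusted p = 0.000154). In the Control its mean rose from 61.0 to 209 CPM (log2 fold change of 1.78 ± 0.13, adjusted p = 4.98e-07), and the changes differed (-2.55 ± 0.18, adjusted p = 2.72e-06). Rprm, reprimo, fell to values of 37.4, 43.2 and 38.6 CPM from 154, 138 and 121 CPM (log2 fold change of -1.79 ± 0.11, adjusted p = 4.68e-08). The Control mean went from 184 to 182 CPM (difference of the log2 fold changes -1.77 ± 0.16, adjusted p = 2.06e-05). Zfpm2, a zinc-finger cofactor of GATA factors, stood at 12.3, 11.1 and 11.2 CPM at E13.5 and 4.89, 5.48 and 8.93 CPM at E15.5 (log2 fold change of -0.84 ± 0.21, adjusted p = 0.00388). The Control mean rose from 35.3 to 69.2 CPM (difference of the log2 fold changes -1.81 ± 0.28, adjusted p = 0.00187). The libraries of both ages lay apart for each of Tle4, Rprm and Zfpm2. Foxp2, a forkhead factor of layer 6 neurons, stood at 18.8, 11.7 and 9.38 CPM at E13.5 and 10.8, 10.8 and 12.3 CPM at E15.5 (log2 fold change of -0.23 ± 0.25, adjusted p = 0.469), with overlap, and the Control went from 10.7 to 28.5 CPM (difference of the log2 fold changes -1.65 ± 0.37, adjusted p = 0.0224, and 0.0962 without the summed Control E15.5 replicates 2 and 3). Tshz3, a zinc-finger factor, rose from 15.4 to 36.6 CPM in the double mutant and from 22.5 to 119 CPM in the Control (difference of the log2 fold changes -1.16 ± 0.26, adjusted p = 0.0235, and 0.0801 without Control E15.5 replicate 1).

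Sox5, a transcription factor of deep-layer neurons, still rose in the double mutant, from 102 ± 12.1 to 201 ± 23.6 CPM (log2 fold change of 0.98 ± 0.20, adjusted p = 0.000894). Its difference from the Control did not pass (-0.31 ± 0.30, adjusted p = 0.707). Syt6, a synaptotagmin of corticothalamic neurons, rose from 2.30 to 9.249 CPM (2.02 ± 0.46). Hs3st4, a heparan sulfate sulfotransferase gene, was at 0 counts at E13.5 and at 1.70, 1.63 and 1.43 CPM at E15.5, which is at least 9.49-fold higher than a floor of 3 counts over the group. The Control mean of Hs3st4 went from 3.92 to 107 CPM, and the difference between the changes with age did not pass the test.

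**Figure D3:**
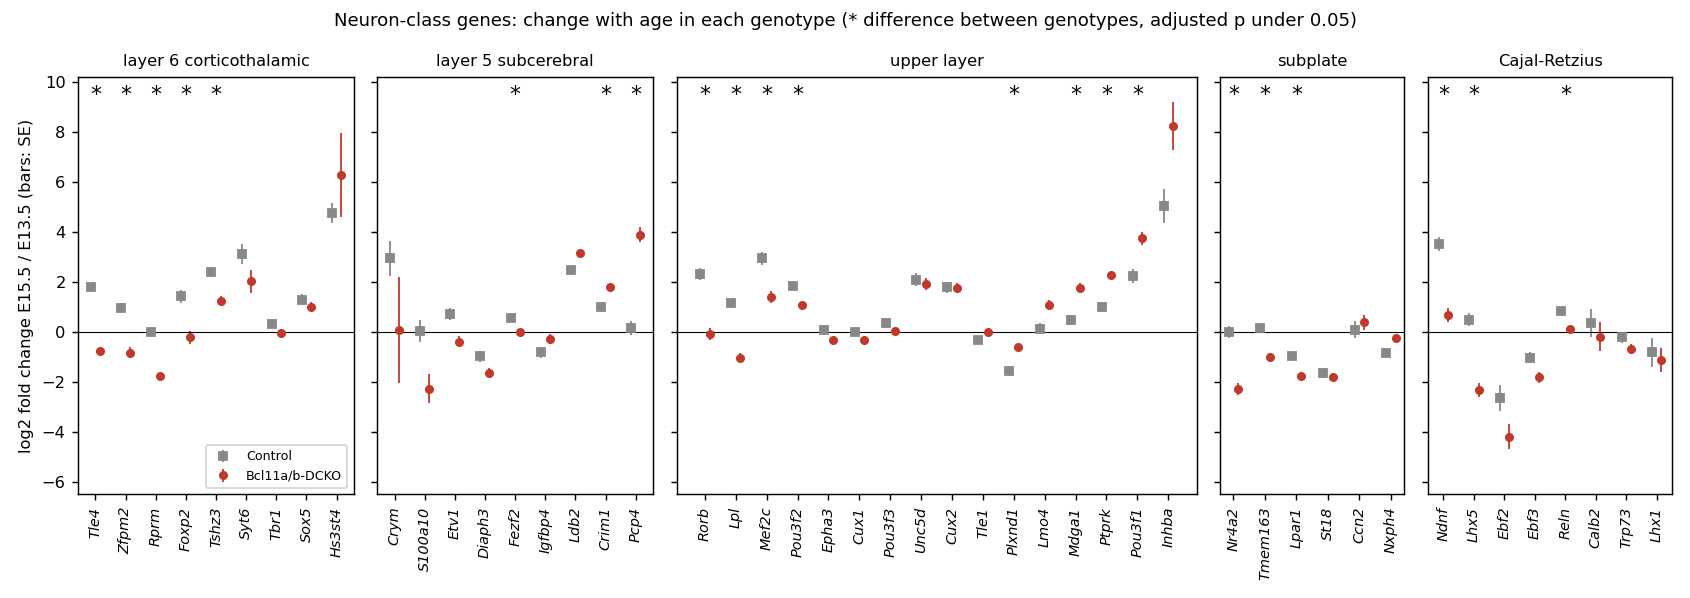
Log2 fold change from E13.5 to E15.5 with its SE for genes of 5 neuron classes, Control as grey squares and Bcl11a/b-DCKO as red circles, ordered within a class by the difference. Asterisks mark an adjusted p under 0.05 for the difference, which holds for 5 of 9 layer 6 genes, all more negative in the double mutant; Hs3st4 and Inhba had 0 counts at E13.5 in the double mutant, so their fitted values give no size.

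Layer 5 subcerebral genes were mixed, with 3 of 9 rising and 2 falling (Control 5 and 2). Over all genes tested 27.7% rose and 27.2% fell. Pcp4, a calmodulin regulator made in layer 5 neurons, stood at 4.17, 2.45 and 2.35 CPM at E13.5 and 48.7, 48.0 and 35.3 CPM at E15.5 (log2 fold change of 3.88 ± 0.30, adjusted p = 2.18e-07) and the ages lay far apart. Its Control mean went from 13.1 to 14.4 CPM, and the difference was 3.73 ± 0.43 (adjusted p = 0.000196). Ldb2, a LIM-domain cofactor, rose from 11.1 ± 2.20 to 98.7 ± 16.4 CPM (log2 fold change of 3.14 ± 0.16, adjusted p = 1.31e-08), also from 9.55 to 52.7 CPM in the Control. Crim1, a transmembrane protein of corticospinal neurons, rose from 17.6 to 61.2 CPM (1.80 ± 0.13). Fezf2, the transcription factor that specifies subcerebral neurons, stood at 92.8, 112 and 88.2 CPM at E13.5 and 89.9, 97.9 and 99.8 CPM at E15.5 (log2 fold change of -0.03 ± 0.10, adjusted p = 0.84). Its Control mean went from 166 to 246 CPM (difference of the log2 fold changes -0.60 ± 0.15, adjusted p = 0.0439), a call that 10 of 19 alternatives ended, with an adjusted p of up to 0.165. S100a10, an annexin partner made in layer 5, fell to at most 1.19 CPM from 4.35, 3.75 and 3.07 CPM (-2.28 ± 0.58).

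Of 17 upper layer genes, 10 rose and 4 fell in the double mutant (Control 11 and 2), against 27.7% and 27.2% of all genes tested. The median of the 17 was 1.08. Ptprk, a receptor tyrosine phosphatase, rose from 71.6 ± 3.52 to 345 ± 47.0 CPM (log2 fold change of 2.27 ± 0.10, adjusted p = 1.01e-08), more than in the Control (51.2 to 101 CPM, difference of the log2 fold changes 1.29 ± 0.15, adjusted p = 0.000232).

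Of the 17 upper layer genes, 4 had a more positive and 4 a more negative change than in the Control. The shares of all genes tested were 2.07% and 1.81%. Among the more negative, Rorb, a nuclear receptor of layer 4, stayed at 7.79, 7.36 and 8.84 CPM at E13.5 and 9.36, 6.52 and 6.78 CPM at E15.5 with overlapping libraries (log2 fold change of -0.09 ± 0.24, adjusted p = 0.761). The Control mean went from 6.47 to 31.7 CPM (log2 fold change of 2.30 ± 0.24, adjusted p = 5.27e-06; difference of the log2 fold changes -2.39 ± 0.34, adjusted p = 0.000974). Lpl, lipoprotein lipase, fell from 11.01 ± 0.613 to 5.36 ± 0.391 CPM (log2 fold change of -1.03 ± 0.19, adjusted p = 0.000399). The Control mean rose from 33.4 to 74.3 CPM (difference of the log2 fold changes -2.18 ± 0.25, adjusted p = 0.000196). Pou3f2 (Brn2), a POU-domain factor, rose less than in the Control, from 171 to 357 CPM against 104 to 375 CPM (difference of the log2 fold changes -0.78 ± 0.14, adjusted p = 0.00536). Unc5d, a netrin receptor of young upper layer neurons, stood at 68.5, 50.8 and 79.0 CPM at E13.5 and 249, 241 and 252 CPM at E15.5 (log2 fold change of 1.91 ± 0.23, adjusted p = 9.15e-06), and the difference from the Control did not pass (-0.18 ± 0.35, adjusted p = 0.875).

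Of 6 subplate genes tested (of 8 listed), none rose and 4 fell (Control 0 and 3, Bcl11a-CKO 0 and 5). Among all genes tested, 27.7% rose and 27.2% fell in the double mutant. The median log2 fold change of the subplate genes was -1.40, against -0.41 in the Control and -1.34 in the Bcl11a-CKO. Nr4a2 (Nurr1), a nuclear receptor of subplate neurons, stood at 56.2, 36.1 and 48.7 CPM at E13.5 and 12.3, 8.59 and 8.39 CPM at E15.5 (log2 fold change of -2.27 ± 0.24, adjusted p = 2.7e-06), whereas the Control mean went from 31.4 to 31.5 CPM (difference of the log2 fold changes -2.28 ± 0.34, adjusted p = 0.00146). St18, a zinc-finger factor, fell from 39.9 to 11.1 CPM (-1.83 ± 0.20) and fell in the Control as well (-1.65 ± 0.22). Cajal-Retzius genes mark the earliest neurons of the marginal zone. Of 8 such genes, 4 fell and none rose, against the same shares of all genes, with a median of -0.91. In the Control 2 fell and 2 rose (median 0.06), and in the Bcl11a-CKO 4 fell and 1 rose (median -0.80). Lhx5, a LIM homeobox gene, stood at 9.06, 11.4 and 8.12 CPM at E13.5 and 1.91, 1.78 and 1.96 CPM at E15.5 (log2 fold change of -2.34 ± 0.27, adjusted p = 5.54e-06), against 4.90 to 7.01 CPM in the Control (difference of the log2 fold changes -2.82 ± 0.38, adjusted p = 0.000617). Ebf2 and Ebf3, of the early B-cell factor family, fell from 14.3 to 0.703 CPM and from 18.3 to 5.16 CPM (-4.21 ± 0.50 and -1.82 ± 0.21). Reln, the reelin gene that guides the layering of the cortex, stood at 143, 122 and 136 CPM at E13.5 and 121, 153 and 155 CPM at E15.5 (log2 fold change of 0.10 ± 0.13, adjusted p = 0.538). Its Control mean went from 259 to 464 CPM (difference of the log2 fold changes -0.74 ± 0.19, adjusted p = 0.0409), a call that 10 of 19 alternatives ended, with an adjusted p of up to 0.157. Ndnf, a secreted protein of Cajal-Retzius cells, stood at 2.17, 4.04 and 3.43 CPM at E13.5 and 4.89, 4.44 and 6.43 CPM at E15.5 (log2 fold change of 0.68 ± 0.29, adjusted p = 0.0582), and its Control mean went from 2.28 to 26.2 CPM (difference of the log2 fold changes -2.83 ± 0.42, adjusted p = 0.00144).

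Axon guidance genes rose in 19 and fell in 8 of 35 cases (Control 16 and 6). The change was more positive than in the Control for 8 of 35 and more negative for 5, against 2.07% and 1.81% of all genes tested. Slit2, a secreted repellent (chromosome 5, 47983138 to 48307733), stood at 47.1, 47.6 and 45.5 CPM at E13.5 and 119.9, 120.1 and 117 CPM at E15.5 (log2 fold change of 1.35 ± 0.09, adjusted p = 5.7e-08), with nearly equal values within each age. Slit2 in the Control went down from 40.5 to 11.02 CPM (log2 fold change of -1.87 ± 0.11, adjusted p = 9.03e-08), and the changes differed by 3.22 ± 0.14 (adjusted p = 2.43e-08). Ephb1, a receptor for B-type ephrins (chromosome 9, 101922128 to 102354693), went the opposite way: it stood at 30.4, 33.1 and 34.99 CPM at E13.5 and 13.4, 13.8 and 8.57 CPM at E15.5 (log2 fold change of -1.46 ± 0.14, adjusted p = 1.34e-06). The Control mean rose from 18.7 to 91.7 CPM (log2 fold change of 2.29 ± 0.14, adjusted p = 1.21e-07; difference of the log2 fold changes -3.75 ± 0.20, adjusted p = 2.16e-07).

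The Eph ligand gene Efnb2 rose from 384 ± 5.96 to 510.3 ± 18.7 CPM (log2 fold change of 0.41 ± 0.06, adjusted p = 4.8e-05) and did not pass the test in the Control (379.8 to 355 CPM, adjusted p = 0.259), a difference of 0.51 ± 0.09 (adjusted p = 0.00546). Plxna2, a receptor for semaphorins, was among the most abundant genes of the list at 814, 691 and 818 CPM at E13.5 and 1995, 2018 and 2081 CPM at E15.5 (log2 fold change of 1.39 ± 0.12, adjusted p = 4.89e-07), against 806 to 1073 CPM in the Control (difference of the log2 fold changes 0.98 ± 0.18, adjusted p = 0.00607). Flrt2, a repulsive adhesion protein, rose from 43.6 ± 4.37 to 203 ± 17.1 CPM (log2 fold change of 2.22 ± 0.13, adjusted p = 4.07e-08), with 83.3 to 108 CPM in the Control (difference of the log2 fold changes 1.85 ± 0.19, adjusted p = 9.7e-05).

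The Unc5 receptors for netrin differed from the Control in both directions. Unc5b stood at 33.5, 31.2 and 27.96 CPM at E13.5 and 85.1, 87.4 and 109.8 CPM at E15.5 (log2 fold change of 1.61 ± 0.13, adjusted p = 2.78e-07) and rose more than in the Control (28.6 to 30.5 CPM, difference of the log2 fold changes 1.51 ± 0.20, adjusted p = 0.000504). Unc5c rose from 8.07 to 18.2 CPM (1.19 ± 0.17), less than in the Control (2.10 to 14.7 CPM, difference of the log2 fold changes -1.60 ± 0.28, adjusted p = 0.00501). Unc5a rose from 14.3 to 97.7 CPM (2.77 ± 0.30). Its difference from the Control did not pass (adjusted p = 0.0545), but passed in 6 of 19 alternatives. Robo1, a Slit receptor, stood at 70.3, 53.7 and 61.1 CPM at E13.5 and 324, 285 and 366 CPM at E15.5 (log2 fold change of 2.4 ± 0.27, adjusted p = 5.26e-06), against 1.86 ± 0.29 in the Control (adjusted p of the difference = 0.587). Slit3 fell from 9.74 to 1.302 CPM (-2.80 ± 0.47) and fell in the Control too. Sema3c, a secreted semaphorin, rose from 56.8 ± 13.9 to 329 ± 28.002 CPM (log2 fold change of 2.54 ± 0.22, adjusted p = 4.56e-07). Its difference from the Control (1.79 ± 0.34, adjusted p = 0.00801) had an adjusted p of 0.0566 without Control E15.5 replicate 1.

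**Figure D4:**
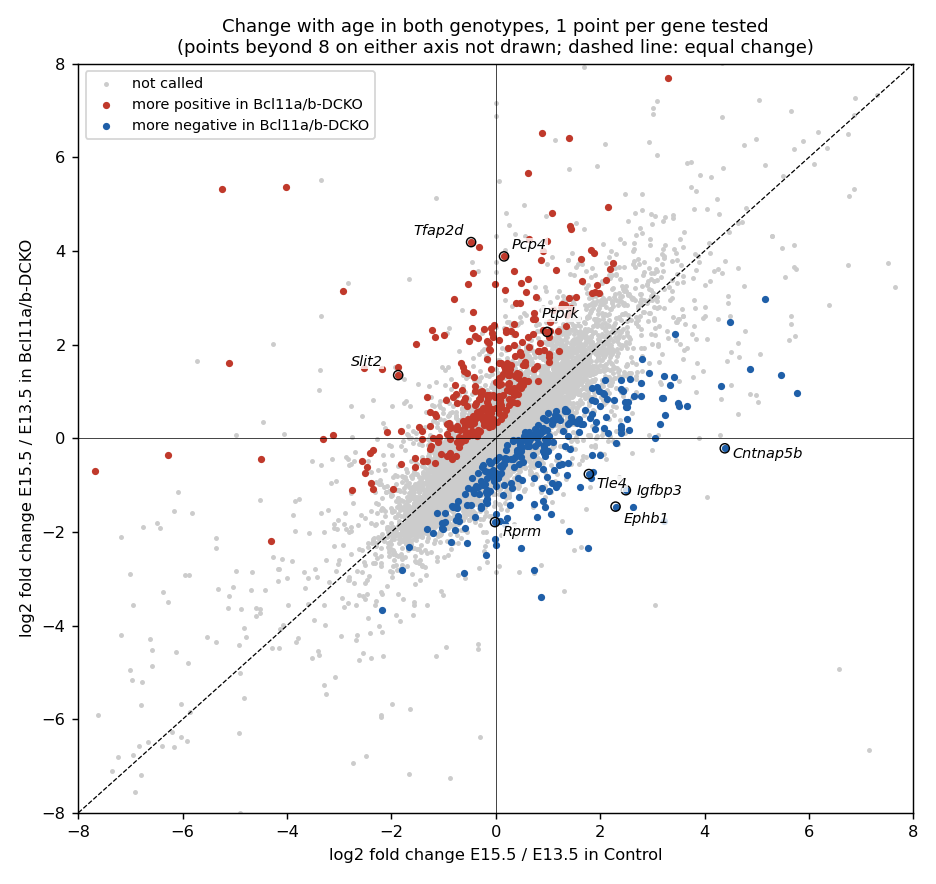
Log2 fold change from E13.5 to E15.5 in Bcl11a/b-DCKO (vertical) against that in Control (horizontal), 1 point per gene tested, with points beyond 8 on either axis not drawn. Red and blue points are the 309 and 270 genes whose change was more positive or more negative in the double mutant; Ephb1, Tle4 and Igfbp3 rose in the Control and fell in the double mutant, and Slit2 did the reverse.

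Over all genes, the change with age was more positive in the double mutant than in the Control for 309 genes (2.07%) and more negative for 270 (1.81%), or 3.87% together. Both counts lean on the E15.5 Control: without its replicate 1 they were 144 and 165, and without its replicates 2 and 3, which were summed, 155 and 140. Without replicate 2 of the E13.5 double mutant, 196 were more positive. Of the 309 genes, 131 rose in the double mutant without passing the test in the Control, 76 rose in both, 47 fell in the Control alone, 39 rose in the double mutant and fell in the Control, and 16 fell in both. Of the 270 genes, 80 rose in the Control alone, 66 fell in the double mutant alone, 56 rose in both, 36 fell in both, and 32 fell in the double mutant and rose in the Control.

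Among the genes named, 4 whose difference passed in each of 19 alternatives and was strongly negative were Kcnab1, Cntnap5b, Ephb1 and Igfbp3. Igfbp3, an insulin-like growth factor binding protein, stood at 16.1, 15.2 and 17.5 CPM at E13.5 and 5.74, 8.00 and 8.57 CPM at E15.5 (log2 fold change of -1.11 ± 0.18, adjusted p = 0.000118). It rose in the Control from 22.6 to 127 CPM (log2 fold change of 2.49 ± 0.16, adjusted p = 1.65e-07; difference of the log2 fold changes -3.60 ± 0.24, adjusted p = 1.9e-06). Cntnap5b, of the contactin-associated protein family, stayed at or under 1.33 CPM in all 6 libraries of the double mutant and rose in the Control from 0.573 to 12.52 CPM (difference of the log2 fold changes -4.60 ± 0.63, adjusted p = 0.000669). Kcnab1, a potassium channel beta subunit, stood at 1.81, 0.577 and 1.26 CPM at E13.5 and 1.49, 2.81 and 2.50 CPM at E15.5, with overlap, and the Control went from 0.191 to 11.46 CPM (adjusted p of the difference = 0.0123).

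Among those with a positive difference, Tfap2d, an AP-2 transcription factor gene, stood at 0.725, 0.866 and 1.62 CPM at E13.5 and 22.1, 22.5 and 14.5 CPM at E15.5 (log2 fold change of 4.19 ± 0.38, adjusted p = 6.69e-07), with 1.15 to 0.852 CPM in the Control (difference of the log2 fold changes 4.66 ± 0.75, adjusted p = 0.00267). Spp1, the secreted protein osteopontin, rose from 0.988 ± 0.145 to 8.84 ± 3.18 CPM (log2 fold change of 3.13 ± 0.38, adjusted p = 8.85e-06), and Control values were low, with 20 counts at E13.5 and 2 at E15.5 (1.27 to 0.159 CPM, adjusted p of the difference = 0.000761). Ajap1, an adherens junction protein, rose from 2.38 to 6.70 CPM (1.49 ± 0.30) and fell in the Control from 4.64 to 0.685 CPM (difference of the log2 fold changes 4.02 ± 0.52, adjusted p = 0.000504). Map3k5 (ASK1), a stress-activated kinase, stood at 3.44, 1.299 and 2.89 CPM at E13.5 and 15.9, 15.1 and 17.9 CPM at E15.5 (log2 fold change of 2.70 ± 0.27, adjusted p = 1.65e-06), against 4.71 to 3.39 CPM in the Control (difference of the log2 fold changes 3.14 ± 0.42, adjusted p = 0.000617).

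Uncx, a homeobox gene, had no count in the E15.5 Control but kept counts in the double mutant. It stood at 21.9, 20.8 and 22.4 CPM at E13.5 and 12.8, 12.6 and 14.8 CPM at E15.5 (log2 fold change of -0.69 ± 0.28, adjusted p = 0.0545), while the Control had 67 counts at E13.5 and 0 at E15.5, at least 19.2-fold lower against a floor of 3 counts over the group. The difference between genotypes had an adjusted p of 0.0106, and of 0.105 without the summed Control E15.5 replicates 2 and 3. Robo3, by contrast, fell in both: 23.9, 33.5 and 28.5 CPM at E13.5 and 0.851, 0.740 and 0 CPM at E15.5 in the double mutant (-5.71 ± 0.79) and 389 counts against 0 in the Control.

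Against the Bcl11a-CKO, which carries no floxed Bcl11b allele, the change with age differed for 216 genes (1.45% of those tested), 121 more positive (0.81%) and 95 more negative (0.636%). This count ranged from 99 to 275 when single samples were left out. Ephb1 differed here too: it went from 12.96 to 86.9 CPM in the Bcl11a-CKO (difference -4.21 ± 0.21, adjusted p = 1.08e-07). Cntnap5b went from 0.645 to 10.7 CPM there (difference -4.25 ± 0.61, adjusted p = 0.00206). Map3k5, which rose in the double mutant, went from 3.13 to 1.21 CPM in the Bcl11a-CKO (difference 4.25 ± 0.49, adjusted p = 0.000301). Rasal1, a Ras GTPase-activating protein, had 2 counts at E13.5 and 206 at E15.5 in the double mutant, a ratio of 109-fold (95% interval 29.7 to 903), and went from 0.523 to 0.333 CPM in the Bcl11a-CKO. The changes shared between the double mutant and the Bcl11a-CKO numbered 2983 genes that rose (72.2% and 84.0% of the lists, 23.8% of all genes tested rose in the Bcl11a-CKO) and 3026 that fell (74.5% and 83.1%, 24.4% fell there).

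Markers of striatum and thalamus were mixed. Of 13 striatum genes listed 9 were tested, of which 3 rose and 2 fell (Control 2 and 2). Over all genes tested 27.7% rose and 27.2% fell. Of all 13, Isl1, Six3 and Tac1 were at 0 counts at E15.5, and Six3 also at E13.5. Foxp1, a forkhead factor also made in cortical projection neurons, stood at 45.8, 44.9 and 46.9 CPM at E13.5 and 16.6, 21.8 and 20.9 CPM at E15.5 (log2 fold change of -1.21 ± 0.14, adjusted p = 8.02e-06), with no change past the test in the Control (60.3 to 66.4 CPM, difference of the log2 fold changes -1.35 ± 0.21, adjusted p = 0.0018). Meis2, a homeobox gene, rose from 415 ± 13.2 to 555 ± 40.8 CPM (log2 fold change of 0.42 ± 0.07, adjusted p = 9.59e-05) and fell in the Control from 357 to 301 CPM (difference of the log2 fold changes 0.67 ± 0.10, adjusted p = 0.00147). Of 6 thalamus genes, 3 rose and 3 fell. Lhx9 fell from 60.5 to 13.1 CPM (-2.20 ± 0.27), and Cdh8 rose from 32.6 to 76.0 CPM (1.22 ± 0.20). Of 9 hippocampus and cortical hem genes listed 6 were tested, of which 2 rose and 1 fell (Control 1 and 1). The summed level of that list was 174.6, 149.7 and 152.4 CPM at E13.5. At E15.5 it was 282.6, 284.6 and 60.5 CPM, with replicate 3 far below the others. The single gene Zbtb20 stood at 252, 250.3 and 15.4 CPM in the same libraries, a like drop in replicate 3. Whether the low sum rests on this gene alone was not tested, so it is no measure of the tissue in replicate 3.

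Glial genes were mixed. Of 14 astrocyte and gliogenesis genes, 6 rose and 4 fell (Control 5 and 4), with a median of 0.45 (Control 0.53). Over all genes tested 27.7% rose and 27.2% fell. Nfix, a nuclear factor of gliogenesis and neuronal maturation, stood at 377, 286 and 289 CPM at E13.5 and 982, 957 and 1202 CPM at E15.5 (log2 fold change of 1.72 ± 0.21, adjusted p = 1.03e-05). Aldh1l1, a folate enzyme used as an astrocyte marker, went from 3.64 ± 2.01 to 55.4 ± 4.69 CPM (log2 fold change of 3.94 ± 0.36, adjusted p = 8.31e-07). In the Control Aldh1l1 rose from 0.447 to 6.38 CPM (3.83 ± 0.67). Gja1 (connexin 43) and Fgfr3, both also made by progenitors, fell by 3.03 and 1.64 on the log2 scale. Ptprz1, a phosphatase of radial glia and oligodendrocyte precursors, rose from 179 ± 27.4 to 288 ± 26.3 CPM (log2 fold change of 0.69 ± 0.11, adjusted p = 7.69e-05), less than in the Control (172 to 687 CPM, difference of the log2 fold changes -1.31 ± 0.16, adjusted p = 0.000263). Of 7 oligodendrocyte lineage genes, 3 rose and 2 fell (Control 2 and 2), against the same shares of all genes, and levels were low. Olig1, a lineage transcription factor, had 1 count at E13.5 and 76 at E15.5, a ratio of 80.2-fold (95% interval 14.0 to 3207). Sox10 went from 0 to 28 counts, at least 9.84-fold higher than the floor of 3 counts.

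**Figure D5:**
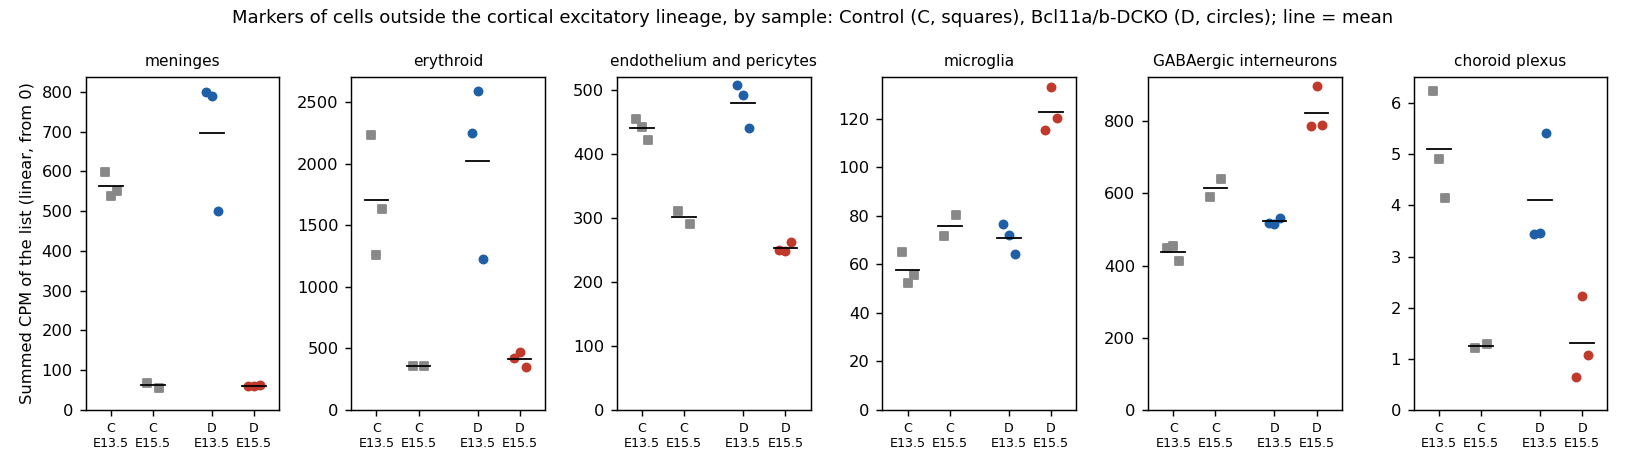
Summed CPM (linear axis from 0) of marker lists for cells outside the excitatory lineage, by sample, with the group mean as a line. Meninges and erythroid sums are lower at E15.5 in both genotypes. Microglia sums are higher at E15.5 in both genotypes, with no overlap between the ages in either. Choroid plexus sums in the double mutant reach at most 5.41 CPM.

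Markers of cells outside the excitatory lineage moved with age, and the part of this in the other results was not tested. Meninges genes fell in 8 of 9 cases and rose in none (median -4.96, Control -4.92), and their summed level was 800.0, 789.7 and 499 CPM at E13.5 and 59.3, 60.0 and 62.7 CPM at E15.5. Col3a1, a fibrillar collagen, stood at 338, 339.6 and 232 CPM at E13.5 and 6.59, 3.70 and 5.89 CPM at E15.5 (log2 fold change of -5.84 ± 0.29, adjusted p = 1.01e-08). Col1a1 fell from 89.8 to 1.20 CPM (-6.29 ± 0.40). Lum, the proteoglycan lumican, had 338 counts at E13.5 and 3 at E15.5, a ratio of 107-fold (95% interval 36.2 to 521). In the Control the log2 fold change of Col3a1 was -5.86 ± 0.35, and the summed level of the list was 538 to 598 CPM at E13.5 and 55.6 to 68.5 CPM at E15.5.

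Erythroid genes fell in 8 of 9 cases and rose in none, and Gata1 was at 0 counts at E15.5. Their summed level was 2248, 2592 and 1229 CPM at E13.5 and 424, 466 and 348 CPM at E15.5, with replicate 3 lowest at E13.5 as it was for the meninges. Hbb-y, the embryonic beta-like globin, stood at 1150.4, 1472 and 561 CPM at E13.5 and 9.78, 12.9 and 6.07 CPM at E15.5 (log2 fold change of -6.77 ± 0.51, adjusted p = 1.85e-07). Hba-x, the embryonic alpha-like globin, fell from 243 to 2.63 CPM (-6.49 ± 0.52). The definitive globin gene Hba-a1 fell less, from 309 to 131 CPM (-1.24 ± 0.22); counts of globin genes with near-identical copies are uncertain.

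Endothelial and pericyte genes fell in 8 of 13 cases and rose in 1, against 27.2% and 27.7% of all genes tested. Cdh5 (VE-cadherin) stood at 66.1, 59.8 and 53.8 CPM at E13.5 and 18.9, 12.1 and 13.03 CPM at E15.5 (log2 fold change of -2.04 ± 0.17, adjusted p = 3.61e-07). Kdr, the VEGF receptor, fell from 82.7 to 28.3 CPM (-1.55 ± 0.14). The rise was that of Slco1c1, a thyroid hormone transporter of the blood-brain barrier, at 1.81, 1.88 and 2.17 CPM at E13.5 and 14.5, 23.8 and 25.7 CPM at E15.5 (log2 fold change of 3.45 ± 0.26, adjusted p = 1.85e-07). Microglia genes rose in 7 of 12 cases and fell in none (median 0.77), against the same shares of all genes. In the Control 1 rose, and for none of the 12 did the difference between the genotypes pass the test. P2ry12, a purinergic receptor, stood at 5.07, 3.18 and 5.95 CPM at E13.5 and 15.7, 15.8 and 11.2 CPM at E15.5 (log2 fold change of 1.61 ± 0.20, adjusted p = 1.38e-05). Cx3cr1, the fractalkine receptor, rose from 10.6 to 19.1 CPM (0.85 ± 0.25). The calls of Trem2, C1qa, C1qc and Fcrls were lost when 1 library was left out (adjusted p of up to 0.111). The summed level of the microglia list was 76.5, 71.9 and 64.2 CPM at E13.5 and 116, 133 and 120.1 CPM at E15.5, and in the Control 52.3 to 64.9 CPM at E13.5 and 71.5 to 80.4 CPM at E15.5.

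Of 21 interneuron genes 19 were tested, of which 13 rose and 3 fell (Control 12 and 3), against 27.7% and 27.2% of all genes. The median of the 19 was 1.65, and Nkx2-1 was at 0 counts at E13.5. Lhx6, a transcription factor of interneurons from the medial ganglionic eminence, stood at 19.4, 16.2 and 17.9 CPM at E13.5 and 96.8, 103 and 105 CPM at E15.5 (log2 fold change of 2.52 ± 0.31, adjusted p = 9.07e-06). Gad1 and Slc32a1, for synthesis and vesicular uptake of GABA, rose from 7.64 to 35.5 CPM and from 5.46 to 22.6 CPM (2.23 ± 0.35 and 2.05 ± 0.29), and Npy, a neuropeptide, from 1.21 to 8.62 CPM (2.80 ± 0.30). For none of these 19 genes did the difference from the Control pass the test.

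Of 12 glycolysis and hypoxia genes 5 fell and 2 rose (Control 5 and 1), with a median of -0.31 in the double mutant and -0.30 in the Control. The 7 of 12 called compare with 54.8% of all genes tested. Pgk1, phosphoglycerate kinase, stood at 367, 379.9 and 352 CPM at E13.5 and 167, 159 and 173 CPM at E15.5 (log2 fold change of -1.14 ± 0.08, adjusted p = 1e-07). Hk2 fell from 57.0 to 16.6 CPM (-1.78 ± 0.14), whereas Hk1, the hexokinase of adult brain, rose from 91.4 to 207 CPM (1.18 ± 0.13). Cholesterol synthesis genes fell in 9 of 15 cases and rose in none (Control 6 and 1). Idi1, an isomerase of the pathway, fell from 79.6 ± 9.97 to 34.6 ± 0.479 CPM (log2 fold change of -1.20 ± 0.12, adjusted p = 1.95e-06). Of 15 p53 and apoptosis genes, 5 rose and 2 fell, 7 of 15 in all, against the same 54.8%. Bbc3 (Puma) rose from 11.4 to 22.4 CPM (0.98 ± 0.20). Immediate early genes rose in 3 and fell in 3 of 8 cases (Control 0 and 3), where 27.7% of all genes tested rose and 27.2% fell. Jun fell from 226 to 83.5 CPM (-1.44 ± 0.07) and Nr4a1 rose from 6.12 to 16.6 CPM (1.42 ± 0.23).

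The largest rises were those of genes near 0 at E13.5. Cntnap5c, Tac2, Galnt9, Inhba, Hs3st5 and S1pr5 had no count in any E13.5 library. Against the floor of 3 counts over the group they were at least 55.9-, 48.9-, 38.7-, 36.9-, 32.3- and 30.6-fold higher at E15.5. Tac2, the precursor of neurokinin B, stood at 6.805, 10.22 and 6.78 CPM at E15.5 and had no count in any Control library. Inhba, a subunit of activin, stood at 7.02, 4.89 and 6.96 CPM at E15.5, with a Control mean of 6.94 CPM. Nr0b1 (Dax1), a nuclear receptor, went from 2 to 275 counts, a ratio of 145-fold (95% interval 39.8 to 1204), with 0 counts at E13.5 and 2 at E15.5 in the Control. Caln1, a neuronal calcium-binding protein, went from 2 to 342 counts, a ratio of 180.4-fold (95% interval 49.5 to 1495), and rose in the Control too (5.04 ± 0.43). For none of Tac2, Inhba, Nr0b1 and Caln1 did the difference from the Control pass the test, though that of Tac2 passed in 1 alternative. Fgf10, a fibroblast growth factor, went from 1 to 164 counts, a ratio of 173-fold (95% interval 30.6 to 6873). Abcc8, the sulfonylurea receptor of ATP-sensitive potassium channels, stood at 0.906, 0.433 and 0.180 CPM at E13.5 and 98.5, 91.1 and 136 CPM at E15.5 (log2 fold change of 7.70 ± 0.77, adjusted p = 1.65e-06).

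The largest falls included genes of meninges and blood described above. Cldn11, a tight junction claudin, went from 244 counts to 0, and Tfap2b, an AP-2 factor, from 95 to 0, at least 77.1-fold and at least 30.02-fold lower against the floor. Myh3, the embryonic myosin heavy chain, stood at 9.60, 13.6 and 11.2 CPM at E13.5 and 0, 0 and 0.179 CPM at E15.5, a ratio of 198-fold (95% interval 35.2 to 7864), and the Control held 8 counts at E13.5 and 2 at E15.5. The difference of Myh3 from the Control did not pass the test, but passed in 1 alternative. Col6a1 went from 313 to 3 counts, a ratio of 98.9-fold (95% interval 33.5 to 482). Msx1, a homeobox gene, stood at 11.8, 11.4 and 4.33 CPM at E13.5 and 0.425, 0 and 0.179 CPM at E15.5 (168 and 3 counts), with replicate 3 lowest at E13.5.

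Genes named here whose exons overlap those of another gene in the annotation (GENCODE M21), and which are uncertain because strand-specific counting is not given in the sources used here, are Bcl11a, S1pr5, Fgf10, Col3a1, Spp1, Tfap2d, Kcnab1, Ephb1, Tnc, Id4, Hes5, Gli3, Dll1, Ccnd2, Cdc20, Notch3, Tcf7l1, Hmga2, Igf2bp1, Igf2bp3, Hs3st4, Syt6, Sox5, Pcp4, Crim1, Ebf2, Lhx5, Ebf3, Dlg2, Shank1, Syn1, Grin2b, Unc5a, Lhx6, Slc32a1, Foxp1, Cdh8, Aldh1l1, Nfix, Fgfr3, Olig1, P2ry12, Cx3cr1, Jun, Hk1, Idi1, Notch1, Neurod1, Unc5c and Reln.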

How the data were processed

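Total RNA from dissected, flash frozen mouse cortex was sequenced. The authors deposited raw read counts per gene for 18 embryonic libraries (34745 genes, no column left unmapped). Per the submitters' processing notes, HISAT2 2.0.4, StringTie 1.3.0, edgeR and the build mm10 were used, and the sources used here give neither the role of each nor the counting settings and strandedness. Libraries of the Control and Bcl11a-CKO at E15.5 that share a title number with side letters R and L were summed, which gave 16 units. Counts were tested with edgeR 4.0.16 (R 4.3.3): TMM scaling, filterByExpr (14947 genes), 1 quasi-likelihood fit of 6 groups, contrasts between ages within a genotype and differences of these contrasts between genotypes, which share no library, and Benjamini-Hochberg adjustment over all genes. The SE is the log2 fold change over the square root of F. Printed values are CPM of the TMM-scaled library, and the mean ± SD is over samples. Where a group had 0 counts, the bound uses a floor of 3 counts over the group, and ratios with few counts have exact 95% intervals for counting error only. The fit was tested on simulated data. Promoters came from RefSeq (GRCm38.p6).

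Members and gene lists were chosen with earlier results of these data known. Named genes were the 2 deleted genes, the 12 largest rises and 12 largest falls with libraries apart and at least 5 CPM in the higher group, up to 6 members of each list with the largest change, and the 8 and 4 largest differences in each direction from the Control and the Bcl11a-CKO at the same minimum. List members whose difference from the Control passed in every alternative, neuron class genes whose difference passed, and Kif11 were added after their values were seen. Predicted genes and the sex-linked list were left out of the ranks. Alternatives were other scaling factors and filters, DESeq2 1.42.0, only the compared groups, 18 separate libraries, a term for the title suffix, and leaving out each sample. The suffix term marked replicate 1 of each E13.5 group. The libraries of P0 and their tables were not used here. A few genes that the rule names are not reported here.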

Additional observations from a re-analysis of the deposited data

Results flagged for a closer look

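The change with age in the double mutant differed from that in the Control for 64 of the named genes by the test of the difference (edgeR's quasi-likelihood test with Benjamini-Hochberg adjustment over all genes), and the values given here in parentheses are the differences of the log2 fold changes, double mutant minus Control. For 33 of them the call was kept in each of 19 alternatives. Less positive or more negative in the double mutant were Cntnap5b (-4.60), Ephb1 (-3.75), Igfbp3 (-3.60), Tmtc1 (-3.18), Ndnf (-2.83), Lhx5 (-2.82), Tle4 (-2.55), Rorb (-2.39), Nr4a2 (-2.28), Lpl (-2.18), Zfpm2 (-1.81), Rprm (-1.77), Unc5c (-1.61), Foxp1 (-1.35), Ptprz1 (-1.31), Homer1 (-1.07), Pou3f2 (-0.78) and Notch1 (-0.68). More positive were Efnb2 (0.51), Meis2 (0.67), Plxna2 (0.98), Neurod1 (1.22), Ptprk (1.29), Unc5b (1.51), Nkd1 (1.82), Flrt2 (1.85), Map3k5 (3.14), Slit2 (3.22), Pcp4 (3.73), Ajap1 (4.02) and Tfap2d (4.66). Spp1 (6.07) and Kcnab1 (-4.81) also kept the call, but rest on 2 and 3 counts in 1 Control group, so that their fitted values give no firm size. For the other 31 genes at least 1 alternative raised the adjusted p above 0.05. More negative in the double mutant were Hs3st3b1 (-4.99), Mme (-3.56), Rgs6 (-3.40), Foxp2 (-1.65), Mef2c (-1.55), Neurog1 (-1.48), Tshz3 (-1.16), Tmem163 (-1.15), Lpar1 (-0.82), Ldha (-0.74), Reln (-0.74), Ccnd2 (-0.65) and Fezf2 (-0.60). More positive were Crim1 (0.79), Plxnd1 (0.94), Nrp1 (1.26), Mdga1 (1.28), Grin2d (1.41), Pou3f1 (1.5), Camk4 (1.69), Sema3c (1.79), Lhx9 (2.10), Wnt5a (2.27), Npas4 (3.32), Abcc8 (4.40) and Fam135b (5.01). Groups with at most 3 counts stand behind Gabra5 (3.22), Olig2 (5.06), Rasal1 (5.63), Uncx (6.99) and Bves (9.41), and these fitted values give no firm size: Uncx and Bves had 0 counts in the E15.5 Control. Ldha, the lactate dehydrogenase A subunit, fell from 437 to 156 CPM in the double mutant and from 443 to 263 CPM in the Control (adjusted p of the difference = 0.0146, and 0.0588 without the summed Control E15.5 replicates 2 and 3). Mef2c, a transcription factor of maturing neurons, rose from 12.2 to 31.9 CPM against 18.5 to 142 CPM in the Control (adjusted p of the difference = 0.027, and 0.153 without the same samples).

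Against the Bcl11a-CKO, 7 named genes differed by the same test, double mutant minus Bcl11a-CKO: Cntnap5b (-4.25), Ephb1 (-4.21), Tmtc1 (-3.12), Map3k5 (4.25), Adcy8 (5.97), Rasal1 (7.05) and Uncx (7.25). The call of Adcy8 was lost in 8 of 19 alternatives, with the highest adjusted p (0.171) without the summed Bcl11a-CKO E15.5 replicates 2 and 3. That of Uncx was lost in 1, without the same samples (adjusted p = 0.173), and that of Tmtc1 in 1, without replicate 2 of the E13.5 double mutant (adjusted p = 0.0556). Rasal1 and Uncx rest on groups with at most 3 counts. Adcy8, an adenylyl cyclase, went from 0.483 to 13.1 CPM in the double mutant and from 1.57 to 0.808 CPM in the Bcl11a-CKO.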

How the results depend on the processing

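The counts of genes that rose and fell with age in the double mutant stayed within 1.5 times of 4134 and 4062 in each of 14 alternatives. Leaving out single samples gave 3601 to 3908 that rose and 3557 to 3821 that fell, and the other alternatives 3960 to 4211 and 3800 to 4222. The 309 genes with a more positive and the 270 with a more negative change than in the Control came to 144 to 259 and 140 to 227 with 1 sample left out. Without Control E15.5 replicate 1 these were 144 and 165, and without replicates 2 and 3, which were summed, 155 and 140. Without E13.5 replicate 2 of the double mutant the first was 196. The other alternatives gave 281 to 437 and 259 to 371. The 216 genes that differed from the Bcl11a-CKO came to 99 to 275 with 1 sample left out (133 and 128 without replicate 2 of the double mutant at E13.5 and E15.5, 116 without Bcl11a-CKO E15.5 replicate 1 and 99 without its replicates 2 and 3), to 339 by DESeq2, to 133 with the compared groups alone and to 336 with 18 separate libraries. Where 1 sample was left of a group, it was assumed to vary like the other groups. No called value changed direction in these alternatives. Of 225 named genes 215 passed the test with age, and 202 of them passed in every alternative that tested them (12 to 14 of 14). Of 64 differences from the Control among them, 33 passed in each of 19 alternatives. Conversely, 19 differences from the Control that did not pass here passed in 1 to 6 of the 19 (Unc5a in 6; Adcy8, Gria1, Scn1a and Slc2a1 in 5), as did 2 changes with age in 2 and 4 of the 14 (Ndnf and Uncx). Other scalings moved the median of all genes to between -0.0234 and 0.0062. No paired analysis was possible because the replicate numbers at E13.5 and E15.5 belong to different embryos and the labels tie none of them together. With counts near 0 at 1 age, fold changes have no upper limit, and small changes of low genes were not detectable at this depth.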

Other observations

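Gene families outside the lists, chosen by name after the values were seen, also moved with age in the double mutant. Of 79 genes of cytosolic ribosomal proteins tested, 53 fell and none rose (median log2 fold change -0.55), and in the Control 42 fell and 1 rose (median -0.35). Rps2 went from 307 to 173 CPM, with a log2 fold change of -0.83 ± 0.16, adjusted p = 0.000533 and Rps20 from 216 to 111 CPM, with a log2 fold change of -0.96 ± 0.18, adjusted p = 0.000446. Exons of 38 of these 79 genes overlap another gene, and reads can also be shared with pseudogenes. Of 53 translation initiation factor genes 35 fell and none rose (Control 28 and 1). Of 46 proteasome subunit genes 29 fell and 2 rose (Control 23 and 0). Medians were -0.25 for both families, and -0.25 and -0.23 in the Control. Over all genes tested 27.2% fell in the double mutant and 23.8% in the Control. Of the protocadherin genes, which encode homophilic adhesion proteins of neurons, 14 of 21 in the beta cluster rose (Control 16), with a median of 1.23 (Control 1.48), and 3 of these 21 overlap another gene. In the alpha cluster 9 of 13 rose (Control 6), with a median of 1.42 (Control 1.51), and in the gamma cluster 8 of 22 (Control 6), with a median of 1.15 (Control 1.24). The alpha and gamma genes share exons. No gene of the 3 clusters fell in either genotype, and 27.7% of all genes tested rose in the double mutant.

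Some genes differed sharply between libraries of 1 age. At least 1 library of the group reached 20 CPM for 8888 genes at E13.5 and 8896 at E15.5. From 8 to 14 genes in each of the 6 libraries lay more than 4-fold above or below both other libraries of the group. A library that lay higher had to reach 20 CPM, as did both others where it lay lower. In replicate 3 these genes include the sex-linked Xist, Kdm5d and Eif2s3y at both ages. Zbtb20, a zinc-finger repressor, stood at 127, 102 and 110.2 CPM at E13.5 and at 252, 250.3 and 15.4 CPM at E15.5. Zfp292 stood at 198.6, 199.1 and 26.7 CPM at E13.5 and at 237, 236.5 and 237.8 CPM at E15.5. Slc7a11, a cystine transporter, stood at 114.1, 5.63 and 7.40 CPM at E13.5 and at 5.32, 151 and 6.25 CPM at E15.5. None of Zbtb20, Zfp292 and Slc7a11 passed the test with age, and the cause was not tested.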
